A study of Homo sapiens with 17 samples.

Results

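Hemidesmosomes are the junctions that hold the basal face of an epithelial cell on its basement membrane, and the 8 genes described here encode their core proteins and the laminin they bind. COL17A1, ITGA6, ITGB4, LAMA3, LAMB3, DST, PLEC and CD151 were taken by symbol from count tables of 23230 genes. The group was chosen by a measured value, the strong rise of COL17A1 after FOXA1 knockdown in LNCaP cells, so every value of that comparison is given below as a description, with no test. All 8 genes were among the 15550 that passed the filter on low counts, but COL17A1 passed it through its siFOXA1 libraries alone, so its being tested at all depended on its being high there.

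The cells were LNCaP-abl (abl below) and LNCaP. Both are established human lines from prostate carcinoma, and the labels call abl androgen independent and LNCaP androgen dependent. Each line received an siRNA against FOXA1 (labelled siFoxA1, siFOXA1 below), an siRNA against CREB1 (siCREB1) or a control siRNA (siControl). The siRNA dose was 40 nM, treatment lasted 3 days, and the serum at that stage was charcoal stripped, at 5%. FOXA1 is a pioneer factor of prostate chromatin, and CREB1 is a transcription factor activated by cyclic AMP signalling. The abl cells were kept in 10% charcoal-stripped serum and used at passages 62 to 64, and the LNCaP cells were kept in 10% serum not described as stripped and used at passages 32 to 34. Each of the 6 groups has 2 RNA-seq libraries. Nothing in the labels says that the 2 came from separate cultures, so p-values may measure technical spread alone.

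In a hemidesmosome, the integrin of the α6 and β4 chains (ITGA6 and ITGB4) binds laminin-332 outside the cell. That laminin is a trimer that holds the α3 chain, encoded by LAMA3, and the β3 chain, encoded by LAMB3. Inside the cell, plectin (PLEC) and the epithelial form of dystonin (DST) tie the integrin to keratin filaments. Collagen XVII (COL17A1) is a membrane-spanning collagen that bridges both sides, and CD151 is a tetraspanin that associates with laminin-binding integrins. In normal prostate these junctions sit in basal cells, and they are commonly lost in prostate carcinoma, whose cells resemble luminal cells.

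Promoters from RefSeq on build GRCh38.p14, covering 250 bases before to 50 bases after each start site, were found for 5 of the 8 genes, with 10 promoters in all. They are shown for COL17A1, LAMB3 and DST, which were higher after FOXA1 knockdown in both lines, and for LAMA3, which differed most between the lines. The COL17A1 promoter lies at chr10:104085831-104086130 on the minus strand. The first LAMB3 promoter lies at chr1:209652376-209652675 on the minus strand. The third DST promoter lies at chr6:56642840-56643139 on the minus strand, and the LAMA3 promoter at chr18:23872770-23873069 on the plus strand. Capitals mark matches on either strand to any of 3 kinds of word. Forkhead words, bound by FOXA1 and its relatives, were TGTTTAC in one form, TGTTTGC in another form, TATTTAC in the next form and finally TATTTGC as written. The short CREB word was TGACG alone. The AP-1 words were TGACTCA in one form and TGAGTCA in the other.
COL17A1: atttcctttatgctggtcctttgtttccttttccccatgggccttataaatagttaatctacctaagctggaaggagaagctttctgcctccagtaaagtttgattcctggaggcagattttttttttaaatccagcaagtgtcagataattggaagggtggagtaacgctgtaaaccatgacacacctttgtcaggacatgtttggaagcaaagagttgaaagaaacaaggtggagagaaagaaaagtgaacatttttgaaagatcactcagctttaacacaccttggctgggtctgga
LAMB3: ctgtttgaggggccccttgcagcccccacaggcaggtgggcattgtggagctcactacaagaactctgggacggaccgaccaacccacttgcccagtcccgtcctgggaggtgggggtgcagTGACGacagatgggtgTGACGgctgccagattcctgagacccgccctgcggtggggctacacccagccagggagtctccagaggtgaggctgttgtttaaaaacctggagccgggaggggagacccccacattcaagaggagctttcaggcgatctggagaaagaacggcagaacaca
DST: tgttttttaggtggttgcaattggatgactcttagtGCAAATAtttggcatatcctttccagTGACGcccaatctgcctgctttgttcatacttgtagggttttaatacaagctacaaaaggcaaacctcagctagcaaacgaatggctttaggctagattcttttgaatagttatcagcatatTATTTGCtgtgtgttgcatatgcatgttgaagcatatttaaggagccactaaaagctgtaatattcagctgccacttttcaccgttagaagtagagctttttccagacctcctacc
LAMA3: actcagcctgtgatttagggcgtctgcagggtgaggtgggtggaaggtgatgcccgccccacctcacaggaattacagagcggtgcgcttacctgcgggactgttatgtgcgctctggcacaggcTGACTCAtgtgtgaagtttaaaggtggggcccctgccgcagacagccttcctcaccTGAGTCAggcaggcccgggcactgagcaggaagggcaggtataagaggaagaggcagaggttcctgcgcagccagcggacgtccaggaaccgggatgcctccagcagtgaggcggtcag

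Of the 10 promoters, 1 held a forkhead match, the DST promoter shown, with a match 214 to 208 bases before its start site and another 66 to 60 bases before it. Forkhead words occur in 12.1% of all 35116 RefSeq promoters of this length. The short word TGACG occurred in 6 of the 10, against 24.6% of all promoters, but the first 2 LAMB3 windows overlap and share both of their matches. The 6 were the 3 LAMB3 promoters, the 2 ITGA6 promoters and the DST promoter shown, so windows of the same gene are counted separately. No excess is read from these shares. The full CREB site TGACGTCA, which contains the short word, occurred in 0 of the 10 and in 1.85% of all promoters. AP-1 words occurred in 3 of the 10 and in 4.95% of all promoters, and LAMA3 had one at 125 to 119 and one at 69 to 63 bases before its start. A match describes letters and is not a binding site, and no match says only that these letters are absent from the window. The deposited binding peaks were not used here.

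Libraries held 9092597 to 37314039 reads assigned to genes. The siControl libraries were uneven, with 37314039 and 9092597 reads in abl and 27555950 and 15200856 reads in LNCaP. The first siControl library of each line also had reads of CSF3R, a neutrophil receptor, with 87 counts in abl and 76 in LNCaP, against at most 2 in every other library. S100A8, another blood marker, had 20 counts in each of these libraries and at most 1 in every other. PTPRC, also a blood marker, had its highest counts in abl siCREB1, at 86 and 75. The first siControl libraries enter every comparison with siControl. FOXA1 stood at 195.6 and 229.0 CPM in abl siFOXA1, against 556.3 and 503.9 CPM in abl siControl, which left 40.0% of its level. In LNCaP it stood at 215.1 and 210.7 CPM under siFOXA1, against 798.6 and 695.2 CPM under siControl, which left 28.5%. CREB1 kept 56.9% in abl siCREB1 and 41.2% in LNCaP siCREB1, and it also fell under siFOXA1, to 73.6% in abl and 73.5% in LNCaP. CPM is the read count of a gene relative to all reads in genes of its library, adjusted by the TMM factor of that library. The values are not corrected for transcript length, so levels are compared between groups and not between genes.

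**Figure D1:**
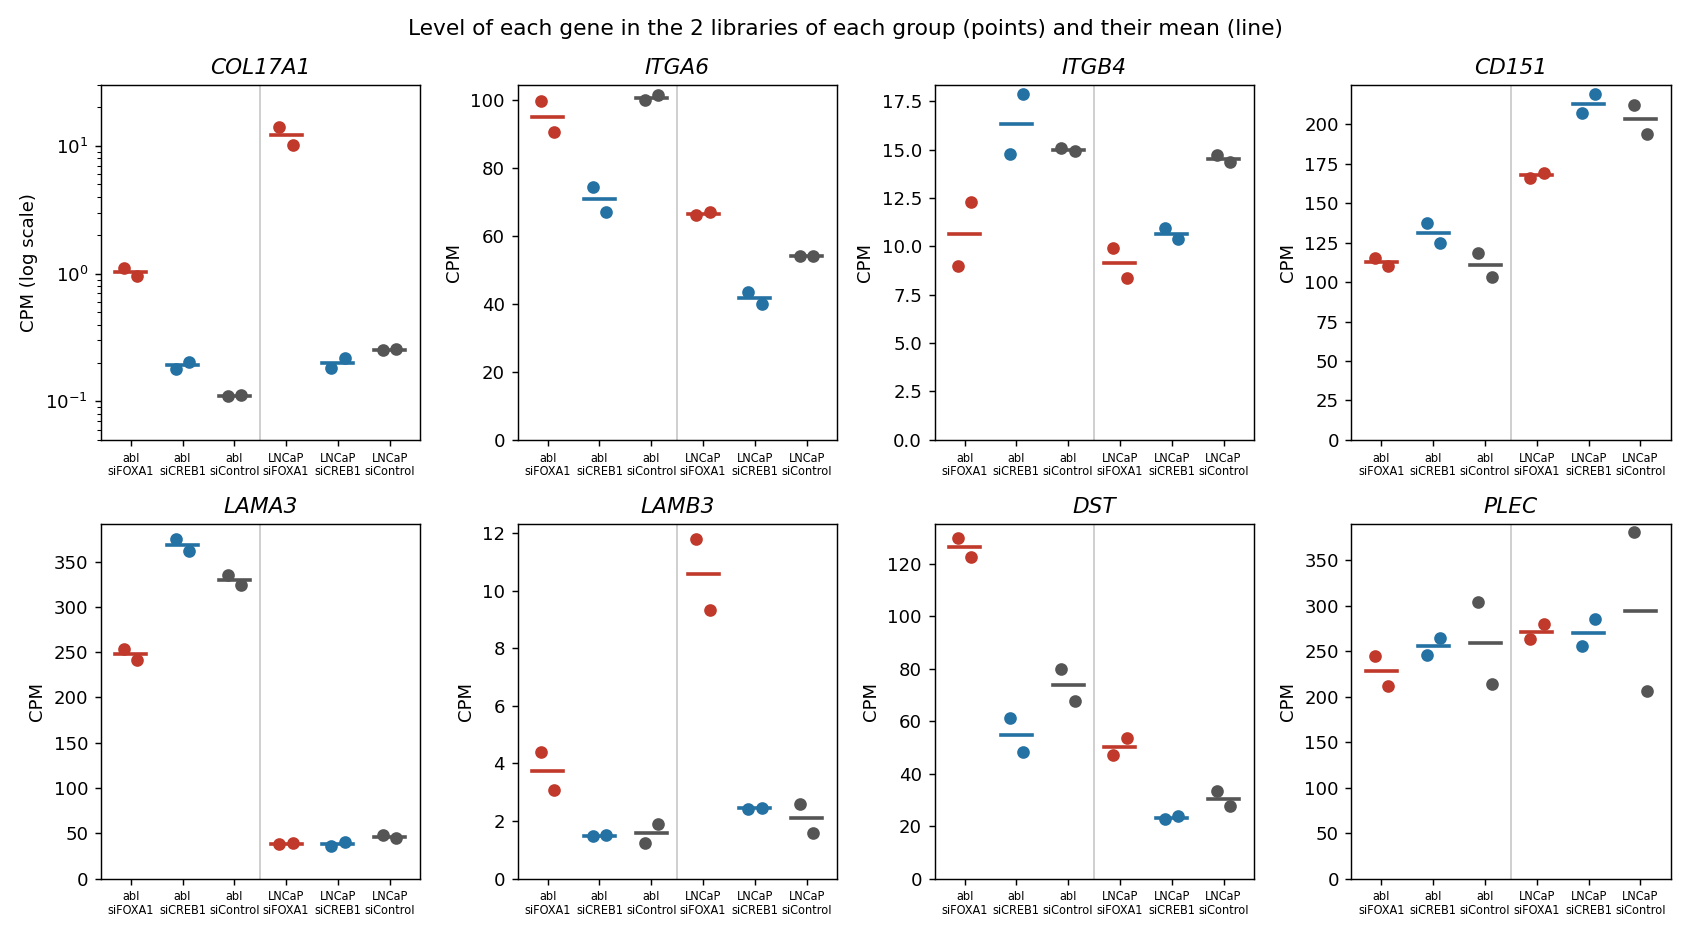
Level of each gene in CPM (vertical axis, logarithmic for COL17A1) in the 6 groups (horizontal axis); points are the 2 libraries of a group and lines their mean. COL17A1 stands at 14.2 and 10.1 CPM in LNCaP siFOXA1 and at 1.10 CPM or less in every other library, LAMA3 stands at 241.8 CPM or more in every abl library and at 47.8 CPM or less in every LNCaP library, and PLEC differs more between the 2 siControl libraries of LNCaP than between groups.

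FOXA1 knockdown in LNCaP is the comparison that chose the genes. COL17A1 had 336 and 264 reads under siFOXA1, or 14.2 and 10.1 CPM, against 7 and 4 reads under siControl, or 0.253 and 0.256 CPM. The log2 fold change was 5.55 ± 0.28 (SE), a 46.7-fold difference in the fit. COL17A1 was therefore close to undetected in control LNCaP cells and readily counted after knockdown. Each SE here and below is the absolute log2 change divided by the square root of the F statistic of edgeR's quasi-likelihood test. With so few control reads, an SE taken this way can understate the uncertainty of COL17A1. LAMB3 stood at 11.8 and 9.33 CPM under siFOXA1 and at 2.60 and 1.60 CPM under siControl, a log2 change of 2.26 ± 0.23. DST stood at 47.0 and 53.6 CPM under siFOXA1 and at 33.4 and 27.7 CPM under siControl, a log2 change of 0.71 ± 0.12. In each of these 3 genes both siFOXA1 libraries lay above both siControl libraries.

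The integrin chains differed in direction in the same comparison. ITGA6 stood at 66.2 and 67.1 CPM under siFOXA1, against 54.0 and 54.1 CPM under siControl, a log2 change of 0.30 ± 0.07. ITGB4 stood at 9.90 and 8.37 CPM under siFOXA1, against 14.7 and 14.3 CPM under siControl, a log2 change of -0.67 ± 0.15. The siFOXA1 libraries thus lay above the siControl libraries for the α6 chain and below them for the β4 chain. LAMA3, with a log2 change of -0.27 ± 0.07, and CD151, with -0.28 ± 0.08, also had both siFOXA1 libraries below both siControl libraries. PLEC overlapped between the groups, with a log2 change of -0.12 ± 0.21. Of the 8 genes, 2 passed a log2 change of 1 in either direction, COL17A1 and LAMB3. The smaller of them was LAMB3, at 2.26, and the largest change short of 1 was that of DST, at 0.71. The shares of all tested genes that passed 1, or whose libraries did not overlap, are not given for this comparison. These counts therefore do not set the group apart from other genes.

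The summed level of 7 markers of basal prostate epithelium was higher in the same libraries, with single markers going both ways. The sum came to 3.58 and 2.87 CPM in LNCaP siFOXA1, against 0.542 and 0.576 CPM in LNCaP siControl. TP63, the defining transcription factor of basal cells, was at 0 in both siFOXA1 libraries, and the basal keratin KRT5 had 2 and 1 reads in them. NGFR, a neurotrophin receptor of basal cells, made up the largest part of the sum, with 39 and 48 reads in LNCaP siFOXA1, against 7 and 1 in LNCaP siControl. The basal keratins KRT14, with 24 and 20 reads under siFOXA1 against 1 and 3 under siControl, and KRT15, with 17 and 4 against 0 and 1, were also higher. DKK3 was lower, with 2 and 2 reads in LNCaP siFOXA1, against 7 and 4 in LNCaP siControl. In abl the marker sum was 0.276 and 0.518 CPM under siFOXA1, against 0.0555 and 0 CPM under siControl. Those sums rest on 6 and 12 reads under siFOXA1 and on 2 and 0 under siControl. The sum was also above siControl after CREB1 knockdown, at 0.676 and 0.203 CPM in abl and 0.884 and 1.02 CPM in LNCaP. NGFR had 19 and 19 reads in LNCaP siCREB1. The 6 fibroblast markers summed to 99.0 and 84.2 CPM in LNCaP siFOXA1, against 59.7 and 67.2 CPM in LNCaP siControl, with DCN and COL1A2 at 0 under siFOXA1. COL1A1 carried that rise, at 96.2 and 81.2 CPM under siFOXA1, against 53.4 and 61.6 CPM under siControl, while LUM averaged 0.880 CPM against 3.10 CPM and PDGFRB 0.358 CPM against 0.841 CPM in the same groups. In abl the fibroblast sum was 17.9 and 22.1 CPM under siFOXA1, against 11.2 and 12.5 CPM under siControl. All 9 luminal markers were detected in every library. Their sum was 3113 and 3208 CPM in abl siFOXA1, against 2418 and 2225 CPM in abl siControl. Of the 9, 4 were called higher and 0 lower by edgeR, where 29.9% of all tested genes were called higher and 26.5% lower. In abl siCREB1 the sum was 2561 and 2619 CPM, with 4 called higher and 1 lower. There, 27.5% of all tested genes were called higher and 23.7% lower. In LNCaP the luminal sum was 3856 and 3975 CPM under siFOXA1, against 3777 and 3476 CPM under siControl. Over all libraries the 5 blood markers summed to 8.83 to 28.3 CPM, and CD68 made up most of the sum in each. CD68 averaged 24.4 CPM in abl siFOXA1, against 14.9 CPM in abl siControl. PTPRC went the other way, averaging 0.474 CPM against 1.33 CPM in the same groups. The part of these markers in the change of the 8 genes was not tested. In bulk RNA, fewer cells of a type and less RNA per cell cannot be told apart.

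The abl line gave a test of FOXA1 knockdown in libraries outside the LNCaP comparison that chose the genes. The genes were, however, chosen with earlier results of these data known. The p-values here and below are therefore not shown to be independent of that choice. COL17A1 had 24 and 22 reads in abl siFOXA1, or 1.10 and 0.950 CPM, against 4 reads and 1 read in abl siControl, or 0.111 CPM in each. The log2 fold change was 3.14 ± 0.50, with an adjusted p of 0.000103 in edgeR's quasi-likelihood test. Because the gene passed the filter through its siFOXA1 libraries alone, a call was favoured by the filter. Its values are therefore given as a description, and this adjusted p is not read as support. Without any filter the log2 change was 3.14. The level in abl reached a mean of 1.03 CPM, beside 12.1 CPM in LNCaP siFOXA1. Leaving out each of the 4 libraries in turn kept the log2 change between 3.04 and 3.26. The control group rests on 5 reads in all, so the size of the fold is uncertain.

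LAMB3, the β3 chain, stood at 4.41 and 3.07 CPM in abl siFOXA1, against 1.25 and 1.89 CPM in abl siControl. Its log2 change was 1.40 ± 0.28 (edgeR, adjusted p = 0.000778), but without the first abl siControl library the change was 0.98 and no longer passed (adjusted p = 0.0734). DST stood at 129.9 and 122.6 CPM under siFOXA1 and at 79.9 and 67.6 CPM under siControl. It rose by 0.76 ± 0.11 (edgeR, adjusted p = 5.99e-05). Its gene count cannot separate the epithelial form from the neuronal and muscle forms of dystonin, and the same holds for the isoforms of LAMA3, ITGA6 and PLEC.

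LAMA3 and ITGB4 fell in abl after FOXA1 knockdown. LAMA3, the α3 chain, stood at 253.3 and 241.8 CPM under siFOXA1, against 334.8 and 324.2 CPM under siControl, a log2 change of -0.41 ± 0.06 (edgeR, adjusted p = 7.89e-05). ITGB4 stood at 8.96 and 12.3 CPM under siFOXA1, against 15.1 and 14.9 CPM under siControl, a log2 change of -0.49 ± 0.15 (edgeR, adjusted p = 0.0110). Its call was lost without the first siFOXA1 library (log2 change -0.28, adjusted p = 0.140) and without the first siControl library (-0.48, adjusted p = 0.0798). The 2 laminin chains that share a trimer thus changed in opposite directions, LAMB3 up and LAMA3 down. ITGA6 (-0.08 ± 0.07), PLEC (-0.20 ± 0.21) and CD151 (0.01 ± 0.08) were not called.

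In all, 3 of the 8 genes, COL17A1 with its filter limit among them, were called higher and 2 lower in abl siFOXA1, where 29.9% of all tested genes were called higher and 26.5% lower. These shares do not set the group apart from other genes. The median log2 change of the 8 was -0.036, against 0.027 over all tested genes. Without the first abl siControl library, 3 of the 8 were called in either direction. The authors' deposited table for this comparison lists 8708 genes, 5 of the 8 among them, with log2 changes of 3.15 for COL17A1, 1.40 for LAMB3, 0.77 for DST, -0.41 for LAMA3 and -0.48 for ITGB4.

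**Figure D2:**
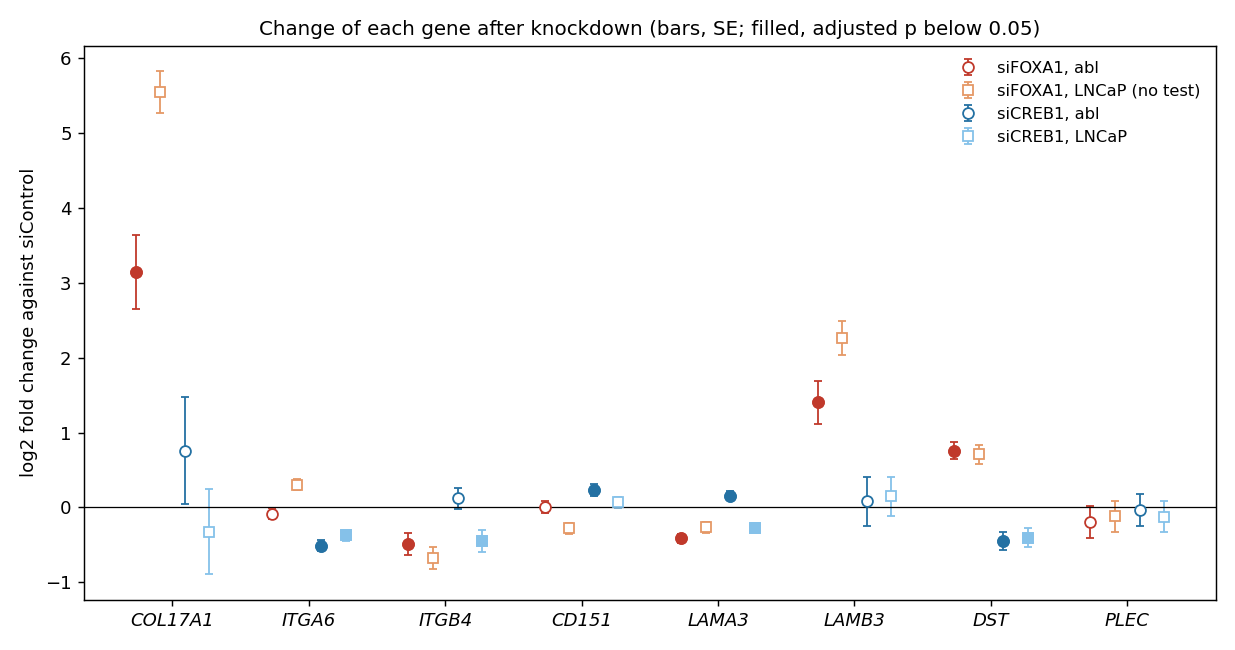
Log2 fold change of each gene after siFOXA1 or siCREB1 against siControl in abl and in LNCaP (vertical axis); bars are the SE and filled points have an adjusted p below 0.05 in edgeR. COL17A1 changes by 3.14 in abl and 5.55 in LNCaP under siFOXA1, LAMB3 by 1.40 and 2.26, and the siCREB1 values of ITGA6 and DST lie below 0 in both lines, while the LNCaP siFOXA1 values have no test because they chose the genes.

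The responses to FOXA1 knockdown in both lines can be read side by side, with no test because the LNCaP values chose the genes. The log2 change in abl was lower than that in LNCaP by 2.40 ± 0.86 for COL17A1, with values of 3.14 and 5.55. For LAMB3 the values were 1.40 in abl and 2.26 in LNCaP, and for DST they were 0.76 in abl and 0.71 in LNCaP. The FOXA1 transcript itself was reduced less in abl than in LNCaP, with a log2 difference of 0.49 ± 0.12 (edgeR, adjusted p = 0.00584). The level left was nearly the same, with a mean of 212.3 CPM in abl siFOXA1 and 212.9 CPM in LNCaP siFOXA1. The siControl means differed, at 530.1 CPM in abl and 746.9 CPM in LNCaP. ITGA6 had all siFOXA1 libraries below all siControl libraries in abl and above them in LNCaP, though its change in abl was small (-0.08) and not called.

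CREB1 knockdown left COL17A1 near its floor. COL17A1 had 4 and 5 reads in abl siCREB1, against 4 reads and 1 read in abl siControl, and 5 and 6 reads in LNCaP siCREB1, against 7 and 4 in LNCaP siControl. Neither change passed the test, with log2 changes of 0.76 ± 0.71 in abl (edgeR, adjusted p = 0.415) and -0.33 ± 0.57 in LNCaP (adjusted p = 0.700). At these counts a fall or a small rise was not detectable. LAMB3 stood at 1.49 and 1.50 CPM in abl siCREB1, against 1.25 and 1.89 CPM in abl siControl, and at 2.43 and 2.44 CPM in LNCaP siCREB1, against 2.60 and 1.60 CPM in LNCaP siControl. The groups overlapped in both lines and LAMB3 was called in neither.

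ITGA6 and DST fell after CREB1 knockdown in both lines. ITGA6 stood at 74.6 and 67.0 CPM in abl siCREB1, against 100.2 and 101.5 CPM in abl siControl, a log2 change of -0.51 ± 0.07 (edgeR, adjusted p = 4.55e-05). In LNCaP it stood at 43.6 and 40.0 CPM under siCREB1, against 54.0 and 54.1 CPM under siControl, a log2 change of -0.37 ± 0.07 (edgeR, adjusted p = 0.00152). Both calls held without any 1 library, with an adjusted p of at most 0.00167 in abl and 0.0304 in LNCaP. DST stood at 61.1 and 48.3 CPM in abl siCREB1, against 79.9 and 67.6 CPM in abl siControl, a log2 change of -0.45 ± 0.12 (edgeR, adjusted p = 0.00533). In LNCaP it stood at 22.7 and 23.8 CPM under siCREB1, against 33.4 and 27.7 CPM under siControl, a log2 change of -0.41 ± 0.13 (edgeR, adjusted p = 0.0217).

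The DST calls depended on single libraries. In abl the change was -0.28 (adjusted p = 0.0976) without the second siCREB1 library and -0.30 (adjusted p = 0.124) without the first siControl library. In LNCaP it was -0.35 (adjusted p = 0.139) without the first siCREB1 library, -0.42 (adjusted p = 0.0797) without the second, and -0.23 (adjusted p = 0.275) without the first siControl library. DST fell under siCREB1 and rose under siFOXA1 in abl, and both comparisons share the abl siControl libraries.

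Other changes under siCREB1 were small. ITGB4 stood at 10.9 and 10.4 CPM in LNCaP siCREB1, against 14.7 and 14.3 CPM in LNCaP siControl, a log2 change of -0.45 ± 0.14 (edgeR, adjusted p = 0.0239). That call was lost without the first siCREB1 library (-0.46, adjusted p = 0.0792), the second (-0.39, adjusted p = 0.131) or the first siControl library (-0.41, adjusted p = 0.100). In abl ITGB4 overlapped between the groups. CD151 stood at 137.6 and 124.6 CPM in abl siCREB1, against 118.6 and 103.5 CPM in abl siControl, a log2 change of 0.23 ± 0.08 (edgeR, adjusted p = 0.0233). It fell short without the first siCREB1 library (0.16, adjusted p = 0.189) or the second siControl library (0.14, adjusted p = 0.197).

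LAMA3 responded to CREB1 knockdown in opposite directions in the lines. It stood at 374.8 and 361.6 CPM in abl siCREB1, against 334.8 and 324.2 CPM in abl siControl, a log2 change of 0.16 ± 0.06 (edgeR, adjusted p = 0.0494). It stood at 36.3 and 40.7 CPM in LNCaP siCREB1, against 47.8 and 45.0 CPM in LNCaP siControl, a log2 change of -0.27 ± 0.07 (edgeR, adjusted p = 0.00795). Each of these changes was small and fragile. The abl call was lost without any 1 of the 4 libraries (adjusted p of 0.0744 to 0.200) and with DESeq2 (adjusted p = 0.125), and the LNCaP call was lost without the first siCREB1 library (-0.17, adjusted p = 0.135) or the first siControl library (-0.20, adjusted p = 0.115). The difference between the lines was firmer, at 0.43 ± 0.09 (edgeR, adjusted p = 0.00431), and it kept its call without any 1 of the 8 libraries, with values of 0.33 to 0.51.

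Under siCREB1 in abl, 2 of the 8 genes were called higher and 2 lower, where 27.5% of all tested genes were called higher and 23.7% lower. Leaving out any 1 of the 4 libraries brought the 4 calls to 2. In LNCaP, 0 of the 8 were called higher and 4 lower, where 17.8% were called higher and 19.8% lower. The median log2 change of the 8 in LNCaP was -0.30, against -0.0020 over all tested genes. The 4 calls became 1 without the first siCREB1 library, 2 without the second, and 1 without the first siControl library, and ITGA6 was among them each time. Without the second siControl library they became 5, with PLEC added (-0.50, adjusted p = 0.0164). The LNCaP comparison shares its siControl libraries with the comparison that chose the genes. For the difference between the lines in the siCREB1 effect, 1 of the 8 genes, LAMA3, was called higher and 0 lower, where 14.8% of all tested genes were called higher and 10.8% lower. The authors' deposited tables list 7997 genes for abl and 4593 for LNCaP, with 3 of the 8 in each, ITGA6, DST and CD151 for abl and ITGA6, ITGB4 and DST for LNCaP, and LAMA3 stands in neither.

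The knockdowns were also set against each other in abl, which uses no library of the comparison that chose the genes. Independence from the choice of genes is not shown here either, because earlier results of these data were known. COL17A1 was higher in siFOXA1 than in siCREB1 by 2.38 ± 0.43 (edgeR, adjusted p = 0.000577). That adjusted p is again not read as support, because the gene passed the filter through its siFOXA1 libraries alone. LAMB3 was higher in siFOXA1 by 1.32 ± 0.27 (edgeR, adjusted p = 0.00143) and DST by 1.21 ± 0.11 (adjusted p = 1.94e-06). ITGA6 was higher by 0.43 ± 0.07 (edgeR, adjusted p = 0.000269). LAMA3 was lower by -0.57 ± 0.06 (edgeR, adjusted p = 8.13e-06) and ITGB4 by -0.62 ± 0.14 (adjusted p = 0.00328). CD151 was lower by -0.22 ± 0.08 (edgeR, adjusted p = 0.0332), a call lost without either siFOXA1 library (adjusted p = 0.0705 and 0.192) or the first siCREB1 library (adjusted p = 0.272). Thus 4 of the 8, COL17A1 with the same filter limit among them, were called higher and 3 lower, where 21% of all tested genes were called higher and 20% lower. PLEC was the 1 gene not called.

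Without knockdown, the lines differed most in LAMA3. It stood at 334.8 and 324.2 CPM in abl siControl, against 47.8 and 45.0 CPM in LNCaP siControl, a 7.09-fold difference (log2 2.83 ± 0.07; edgeR, adjusted p = 4.66e-13). Under siCREB1, in separate libraries, it was 9.56-fold higher in abl (log2 3.26 ± 0.07). LAMB3, which pairs with it in laminin-332, did not follow. LAMB3 stood at 1.25 and 1.89 CPM in abl siControl, against 2.60 and 1.60 CPM in LNCaP siControl, with overlapping libraries and a log2 difference of -0.64 ± 0.31 (edgeR, adjusted p = 0.0848). It passed without the second LNCaP siControl library (-0.89, adjusted p = 0.0225).

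DST and ITGA6 were also higher in abl. DST stood at 79.9 and 67.6 CPM in abl siControl, against 33.4 and 27.7 CPM in LNCaP siControl, a log2 difference of 1.28 ± 0.12 (edgeR, adjusted p = 5.38e-07). ITGA6 stood at 100.2 and 101.5 CPM in abl siControl, against 54.0 and 54.1 CPM in LNCaP siControl, a log2 difference of 0.90 ± 0.07 (edgeR, adjusted p = 1.05e-07). CD151 was lower in abl, at 118.6 and 103.5 CPM, against 212.1 and 194.1 CPM in LNCaP siControl, a log2 difference of -0.86 ± 0.08 (edgeR, adjusted p = 2.81e-07). Under siCREB1 the log2 differences were 1.23 ± 0.12 for DST, 0.76 ± 0.07 for ITGA6 and -0.70 ± 0.08 for CD151, all called by edgeR. ITGB4 stood at 15.1 and 14.9 CPM in abl siControl, against 14.7 and 14.3 CPM in LNCaP siControl, and did not pass (0.05 ± 0.14). Under siCREB1 it stood at 14.8 and 17.9 CPM in abl, against 10.9 and 10.4 CPM in LNCaP, and was called higher by 0.62 ± 0.14 (edgeR, adjusted p = 0.00154).

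Between the lines under siControl, 3 of the 8 were called higher in abl and 1 lower, where 30.5% of all tested genes were called higher and 33.1% lower. Without the second LNCaP siControl library the 4 calls became 6, with PLEC (-0.55, adjusted p = 0.00437) and LAMB3 added. Under siCREB1, 4 were called higher and 2 lower, where 31.6% of all tested genes were called higher and 30.1% lower. LAMB3 was one of the 2 lower, by -0.70 ± 0.28 (edgeR, adjusted p = 0.0423), and lost its call without any 1 of the 4 libraries (adjusted p of 0.112 to 0.134) and with DESeq2 (adjusted p = 0.0571). The siControl comparison shares the LNCaP siControl libraries with the comparison that chose the genes, and the siCREB1 comparison does not.

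**Figure D3:**
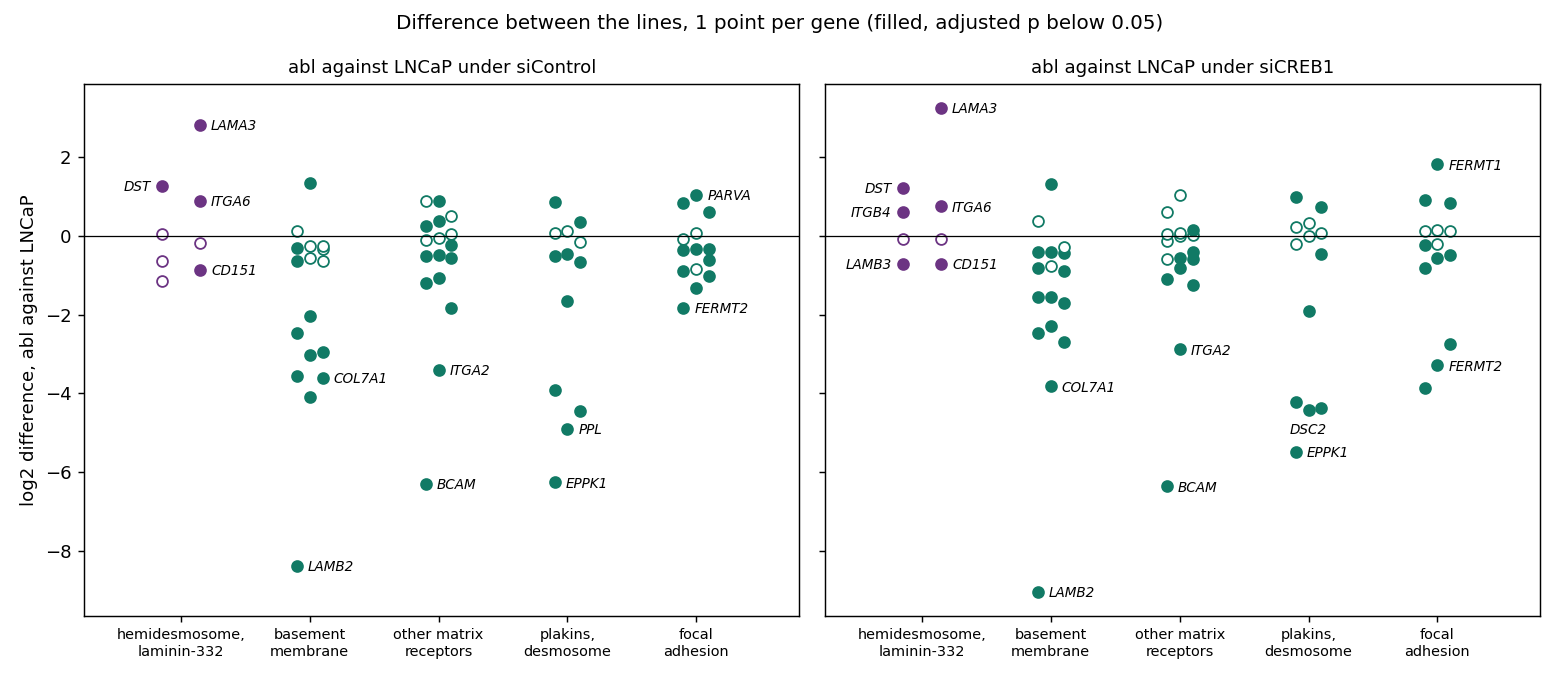
Log2 difference of abl against LNCaP (vertical axis) under siControl (left) and siCREB1 (right) for the 8 hemidesmosome and laminin-332 genes (purple) and 4 lists of related genes (green), 1 point per tested gene; filled points have an adjusted p below 0.05 in edgeR. LAMA3 lies highest in both panels, at 2.83 and 3.26, and LAMB2 lowest, at -8.38 and -9.03.

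PLEC, which anchors keratin filaments, had no call in any of the 7 comparisons tested. Its siControl libraries stood far apart, at 304.6 and 214.1 CPM in abl and at 381.6 and 206.1 CPM in LNCaP, against 211.5 to 285.3 CPM over the other 8 libraries. In both lines the first library was the higher, by 1.42 times in abl and 1.85 times in LNCaP.

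Over the 6 groups the genes followed different orders. COL17A1 stood highest in LNCaP siFOXA1 and next in abl siFOXA1, and its 4 other groups stood at 0.256 CPM or less, with LNCaP siCREB1 and abl siCREB1 overlapping. LAMB3 had the same pair on top, and its next groups, LNCaP siCREB1, LNCaP siControl, abl siControl and abl siCREB1, each overlapped with their neighbour. DST stood highest in abl siFOXA1, followed by abl siControl, and its abl siCREB1 and LNCaP siFOXA1 libraries overlapped. LAMA3 had the 3 abl groups on top, in the order siCREB1, siControl and siFOXA1 with no overlap, and its LNCaP siFOXA1 and siCREB1 libraries overlapped. ITGA6 had abl siControl on top and then abl siFOXA1, its abl siCREB1 and LNCaP siFOXA1 libraries overlapped, and LNCaP siCREB1 stood lowest. CD151 had the 3 LNCaP groups above the 3 abl groups, with siFOXA1 apart from and below the other LNCaP groups. ITGB4 had abl siCREB1 and abl siControl on top, overlapping, and its lowest groups, LNCaP siCREB1, abl siFOXA1 and LNCaP siFOXA1, each overlapped with their neighbour. PLEC had no neighbours apart except abl siCREB1 above abl siFOXA1. Between the highest and lowest group of a gene, mean log2 CPM spanned 5.94 for COL17A1, 3.26 for LAMA3, 2.75 for LAMB3, 2.44 for DST and 1.27 for ITGA6. CD151, ITGB4 and PLEC spanned less than 1.

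Likeness between genes was taken as the root mean square difference of their centred log2 CPM over the 6 groups, as a description. The measure is not scaled to the span of a gene, so genes that vary little lie close whatever their order of groups. It also includes the LNCaP siFOXA1 values that chose the genes. Among the 8, CD151 and PLEC were the closest pair (0.31), ahead of ITGB4 and PLEC (0.32) and of ITGA6 and DST (0.41). LAMB3 was the closest to COL17A1, at 1.14, and LAMA3 the farthest, at 2.97. LAMA3 and LAMB3 lay 2.12 apart. Among all tested genes, those closest to COL17A1 were GAS1, a membrane-anchored growth arrest protein (0.37), the chemokine CCL5 (0.42), the death ligand TNFSF10 (0.49) and RAET1L, a ligand of natural killer cells (0.49). The closest to LAMB3 was LOC100144602 (0.11), followed by the DNA repair enzyme TDP1 (0.16). Those closest to LAMA3 were LOC285441 (0.15) and UG0898H09 (0.17). For DST they were LASS6, a ceramide synthase (0.17), and PPARGC1B, a coactivator (0.19), and for ITGA6 the phosphatase PTP4A1 (0.05) and KAZALD1 (0.08). Some of these genes were near the floor in part of the groups. GAS1 stood at -3.57 log2 CPM in abl siControl and LOC285441 at -3.57 in LNCaP siFOXA1.

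Other genes of the basement membrane and its receptors were read from lists chosen with earlier results known. In abl siFOXA1, 4 of 17 tested basement membrane genes were called higher and 2 lower, where 29.9% of all tested genes were called higher and 26.5% lower, shares to which the other lists of this comparison are read too. COL18A1, a basement membrane collagen, rose by 1.07 ± 0.13 (edgeR, adjusted p = 1.09e-05), and HSPG2, which encodes perlecan, changed by -0.89 ± 0.29 (adjusted p = 0.0185). Of 17 tested other matrix receptors and partners, 4 were called higher and 6 lower, with the integrin chains ITGA5 (-0.90 ± 0.08) and ITGAV (-0.87 ± 0.08) changing most. Of 13 tested plakin and desmosome genes, 4 were called higher and 3 lower, and the plakins MACF1 (-1.09 ± 0.17) and DSP (-1.07 ± 0.10) were lower while DST was higher. Of 14 tested focal adhesion genes, 7 were called higher and 5 lower, and of 8 tested matrix proteases, 5 higher and 2 lower. Under siCREB1, HSPG2 was called lower in abl (-0.97 ± 0.29) and in LNCaP (-0.96 ± 0.19), and ITGAV was called lower in both lines as well (-1.07 ± 0.085 in abl and -0.74 ± 0.085 in LNCaP). Of the 17 tested basement membrane genes, 3 were called higher and 4 lower in abl siCREB1. There, 27.5% of all tested genes were called higher and 23.7% lower. In LNCaP siCREB1, 1 of the 17 was called higher and 5 lower, where 17.8% of all tested genes were called higher and 19.8% lower.

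Some of these genes differed widely between the lines. LAMB2, the β2 laminin chain, had 41 and 13 reads in abl siControl, against 11710 and 6005 in LNCaP siControl, a log2 difference of -8.38 ± 0.16 (edgeR, adjusted p = 6.73e-14). BCAM, a laminin receptor, had 97 and 15 reads in abl siControl, against 6055 and 2579 in LNCaP siControl, a log2 difference of -6.29 ± 0.16 (edgeR, adjusted p = 6.93e-13). The plakins EPPK1 (-6.26 ± 0.29) and PPL (-4.90 ± 0.17) and the anchoring fibril collagen COL7A1 (-3.61 ± 0.46) were also lower in abl. Over the lists, 10 of 17 basement membrane genes, 9 of 17 other receptors and 8 of 13 plakin and desmosome genes were called lower in abl under siControl, and 1, 3 and 2 were called higher, where 33.1% of all tested genes were called lower and 30.5% higher. Of 14 tested focal adhesion genes, 3 were called higher and 8 lower, and of 8 tested matrix proteases, 1 higher and 6 lower.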

How the data were processed

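RNA was measured in 12 libraries, 2 for each of 6 groups, with a kit that does not mark strand, so reads of overlapping or antisense genes cannot be told apart. Per the submitters' processing notes, the tools included CASAVA 1.8, TopHat2 2.0.8, Bowtie2 2.1.0, HTSeq 0.5.3p9 and edgeR 3.0.6, with build hg19. Not given in the sources used here were the annotation and the strand setting. Raw read counts per gene were deposited. Between 54.8% and 58.3% of reads had no feature and 0.774% to 0.924% were ambiguous, and both stayed out of library sizes. The authors' deposited comparison tables give log2 fold changes and adjusted p-values, of which only log2 values of the 8 genes are printed. Columns abbreviated SIC were read as siControl, and 8 of 8 repeated control columns were identical and used once.

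Counts were fitted in R 4.3.3 with edgeR 4.0.16 (limma 3.58.1), using filterByExpr with a minimum count of 10, TMM scaling, and a quasi-likelihood test over 1 mean per group for all 6 groups, with 6 residual degrees of freedom. Adjusted p-values are Benjamini-Hochberg over 15550 genes, called below 0.05. CPM were computed from the counts and TMM factors. DESeq2 1.42.0 was an alternative, beside other scalings, no filter, fits of only the groups compared, a replicate block and leaving out each library. The statistics were tested on simulated data.

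The 8 genes and all lists were chosen with earlier results of these data known. Named genes were the 8, FOXA1 and CREB1, up to 2 called genes per list and comparison with the largest log2 change among those whose mean log2 CPM reached 1, plus the 4 genes closest in profile to each of the 8 whose group means span at least 1. Of these, a selection is printed, and 1 further gene of the rule is not reported here. KRT14, KRT15, KRT5, TP63, NGFR, DKK3, DCN, COL1A1, COL1A2, LUM, PDGFRB, CSF3R, S100A8, CD68 and PTPRC are named from marker lists. They were chosen after their values were seen. The promoter words were chosen after the promoters were seen. The deposited peak lists of 3 ChIP samples were not used, because gene positions of their build were not at hand, and 8 knockdown ChIP samples were not analysed here.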

Additional observations from a re-analysis of the deposited data

Results flagged for a closer look

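The effect of CREB1 knockdown on LAMA3 differed between the lines in a test of the difference itself, with a log2 difference of 0.43 ± 0.095 (edgeR, adjusted p = 0.00431). The log2 change was 0.16 in abl, where both siCREB1 libraries lay above both siControl libraries, and -0.27 in LNCaP, where both lay below. Neither change was firm on its own. The abl call was lost without any 1 of its 4 libraries. The LNCaP call was lost without the first siCREB1 or the first siControl library. Both calls were also lost in fits of only the groups compared.

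The effect of FOXA1 knockdown on ITGA6 had opposite signs in the lines, with a difference of abl minus LNCaP of -0.38. Both siFOXA1 libraries lay below both siControl libraries in abl and above them in LNCaP. The difference was not tested, because the LNCaP comparison chose the genes. The abl change was small, at -0.08, and on its own did not pass (edgeR, adjusted p = 0.351). With 1 library left out it was -0.15 to -0.0018, so a fall in abl was not shown.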

How the results depend on the processing

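Among the alternatives for single genes, 595 values kept direction and side of the threshold, 29 turned sign, 7 newly passed, 32 no longer passed and 4 untested values moved. With 1 library left out at a time, the number of the 8 genes called was 3 to 5 for siFOXA1 in abl, 2 to 2 for siCREB1 in abl, 1 to 5 for siCREB1 in LNCaP and 1 to 2 for the line difference in the siCREB1 effect. The line difference also gave 2 calls with no filter, with only the groups compared, and with the replicate block. Replicate numbers did not pair the libraries (correlations of -0.039 to 0.12 within a line, and -0.047 to 0.23 between lines, highest between the siControl groups). Under the block ITGB4 passed in the line difference (0.52, adjusted p = 0.0409 in edgeR), and ITGB4 between the lines under siControl turned to -0.091. It was -0.015 with library totals. CD151 after siFOXA1 in abl turned to -0.0092 with DESeq2 size factors, -0.023 with library totals, -0.0065 with only the groups compared and -0.0091 with DESeq2. Leaving out 1 library gave changes of either sign for CD151 after siFOXA1 in abl (-0.079 to 0.13), COL17A1 between lines under siCREB1 (-0.18 to 0.070), DST in the line difference (-0.24 to 0.11), ITGB4 after siCREB1 in abl (-0.012 to 0.26), and LAMB3 after siCREB1 in abl (-0.33 to 0.26), in LNCaP (-0.093 to 0.63) and in the line difference (-0.53 to 0.19). PLEC did so for siFOXA1 in abl (-0.42 to 0.10) and LNCaP (-0.49 to 0.42), siCREB1 in abl (-0.25 to 0.27) and LNCaP (-0.50 to 0.41), the lines under siControl (-0.55 to 0.37) and siCREB1 (-0.15 to 0.014), and the line difference (-0.44 to 0.47). The cause was not tested. Scaling by library totals moved the median of all genes by up to -0.11, between the lines under siCREB1. Depth limits COL17A1 most, with 1 to 7 reads in each library without FOXA1 knockdown. Other overlaps and thresholds for the peak lists were not run.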
